A study of Mus musculus with 12 samples.

Results

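Fas and the core genes of the BCL2 family take part in the decision of a B cell to live or die, and their RNA was compared in 4 groups of sorted mouse B cells. The genes were taken by name: Fas, Bcl2, Bcl2l1, Mcl1, Bcl2l11, Bax, Bak1, Bid, Pmaip1 and Bbc3, each through the probe sets that carry its symbol and no other. Of these 10 genes, 9 had at least 1 such probe set, with 28 probe sets among the 45037 on the array, and 9 genes among the 18193 that could be tested. Bax, a pore-forming effector, is not analysed here.

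Age-associated B cells (old ABC) were sorted from the spleen of mice older than 15 months, and B1 cells (old B1) from the peritoneal cavity of mice of the same age. Young B1 cells came from the peritoneal cavity of mice aged 8 weeks, and follicular B cells (old FO) from the spleen of mice older than 15 months. All mice were female C57BL/6 without a named transgene or treatment, and the cells went from the sorter to RNA isolation with no culture. Each group holds 3 Affymetrix arrays. The labels do not give the surface markers of the sort, they write B1a in the sample titles and B1 in the cell type field, and they do not say whether replicates are single mice, pools or repeated sorts. P-values therefore measure only the spread between these arrays. ABC and FO cells differ from B1 cells in organ as well as in cell type, and the contribution of each cannot be told apart.

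Fas is a death receptor of the TNF receptor family. When Fas ligand binds it, the adaptor FADD and caspase-8 gather on its cytoplasmic tail and start a protease cascade, a route by which activated and self-reactive B cells are removed. The BCL2 family acts at the mitochondrion: BCL2, BCL-XL (Bcl2l1) and MCL1 hold the effectors BAX and BAK in check, and the BH3-only proteins BIM (Bcl2l11), BID, NOXA (Pmaip1) and PUMA (Bbc3) release or activate them. In mice, BIM limits the number of mature B cells and MCL1 is needed to keep them alive.

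The B cell label was checked with 7 measured B cell markers (Ms4a1, Cd79a, Cd79b, Pax5, Ebf1, Blnk, Cd22), whose summed intensity was 45650 to 47180 in old ABC, 42350 to 43400 in old B1, 42400 to 43190 in young B1 and 46960 to 50590 in old FO. The sums hide dimmer markers: Pax5 read 42.4, 40.3 and 21.1 in old B1 and 120, 51.1 and 86.9 in old FO. Of the 7 markers, 3 (Cd22, Ebf1 and Pax5) were called lower in old B1 than in old FO. In old ABC, 1 was called lower than in old FO, and 2 higher than in old B1. Markers of 7 other cell types were measured too, and their sums are given beside the results for Fas and Bbc3. Intensity is the linear value deposited by the authors. Its 75th percentile was 346 on old B1 replicate 3 and 378 on old FO replicate 2, against 400.1 to 412 on the other 10 arrays, and a called value, or a direction, that changes without these 2 arrays is given both ways. All tests below are limma fits of log2 intensity over all 12 arrays and all 18193 genes, a gene being represented by its brightest probe set. A gene is called when its Benjamini-Hochberg adjusted p is under 0.05, and a log2 difference is followed by ± its standard error, except where SD is written.

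Fas RNA was highest in old ABC, intermediate in old FO and lowest in both B1 groups, and it was called in 3 of the 4 comparisons. On the 3 old ABC arrays its intensity was 2375, 2782 and 2670. It was 141, 89.3 and 87.3 on the old B1 arrays, 49.1, 86.0 and 83.7 on the young B1 arrays, and 429, 559 and 395 on the old FO arrays. Every ABC array lay above every FO array, and every FO array above every B1 array. The means were 2609 ± 210 in old ABC, 105.9 ± 30.6 in old B1, 72.9 ± 20.7 in young B1 and 461 ± 86.5 in old FO (SD, n = 3 each).

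Fas was 5.71-fold higher in old ABC than in old FO (log2 difference 2.51 ± 0.25, 95% confidence interval 1.96 to 3.07, adjusted p = 0.000112). Against old B1 cells, old ABC held 25.2-fold more (4.66 ± 0.25, interval 4.10 to 5.21, adjusted p = 1.91e-06). Old B1 cells in turn held less than old FO cells, with a log2 difference of -2.14 ± 0.25 (interval -2.70 to -1.59, adjusted p = 0.000207). These 3 calls were kept under each of the 24 other settings tried. Old B1 lay above young B1 on every array, by 0.55 ± 0.25 (interval -0.01 to 1.10), and this difference was not called (adjusted p = 0.661). In bulk RNA, fewer cells that carry a transcript and less of it per cell cannot be told apart.

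The promoter of Fas is shown because this gene had the largest differences among the members. It is the 250 bases before the start of Fas in the RefSeq table of GRCm38.p6, chr19:34290409-34290658, plus strand, with motif matches in capitals.
Fas: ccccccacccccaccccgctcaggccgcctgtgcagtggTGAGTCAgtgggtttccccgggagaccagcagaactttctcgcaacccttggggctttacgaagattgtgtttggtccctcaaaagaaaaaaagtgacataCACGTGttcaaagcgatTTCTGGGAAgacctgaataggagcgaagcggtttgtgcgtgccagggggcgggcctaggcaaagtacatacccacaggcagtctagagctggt
In this stretch 6 motifs were searched on both strands: AP-1 (TGANTCA), the kappaB consensus, GAS (TTCNNNGAA, a STAT element), FOXO (GTAAACA), T-box (AGGTGTGA) and the E-box CACGTG. The first capitals are an AP-1 match that begins 211 bases before the start, the second an E-box match at 110 bases, and the last a GAS match at 93 bases. Among 32851 promoter windows of this length, AP-1 was found in 6.75%, the E-box in 6.02% and GAS in 7.02%. The matches do not overlap each other, and they describe letters in this window, not binding.

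**Figure D1:**
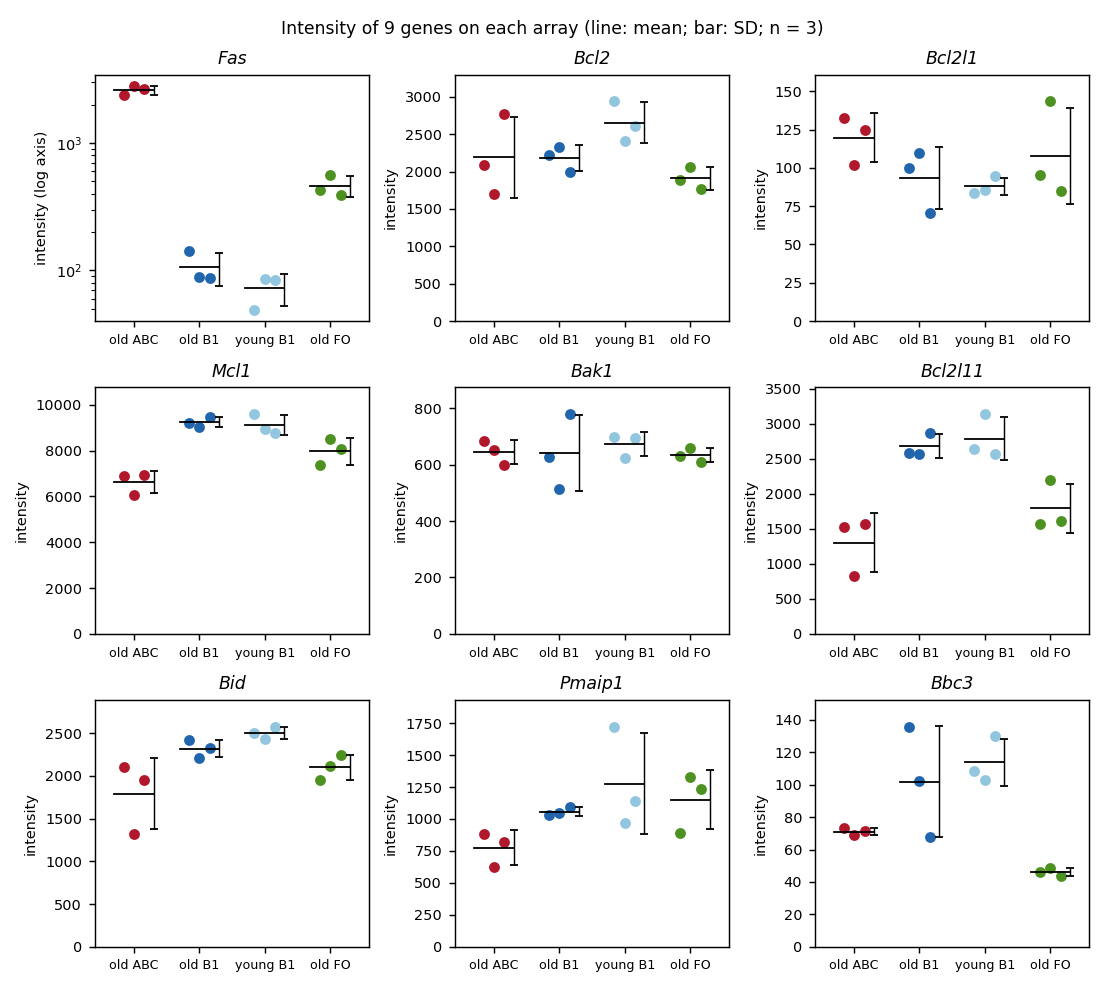
Deposited linear intensity of the 9 genes (one panel each, brightest probe set) on the 3 arrays of old ABC, old B1, young B1 and old FO. Points are arrays, horizontal lines group means and bars the SD; the Fas axis is logarithmic and the others start at 0. Fas is at 2375 to 2782 in old ABC and at 395 to 559 in old FO, above 49.1 to 141 in both B1 groups, while Bak1 lies between 514 and 780 on all 12 arrays.

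Neutrophil transcripts were highest in old ABC, as Fas was. Their sums were also higher on every old FO array than on every old B1 array, as for Fas. The median log2 difference of these markers in old B1 minus old FO was -2.10. The sums of old FO and young B1 overlapped. All 9 measured neutrophil markers (among them S100a8, S100a9, Ngp and Camp) were called higher in old ABC than in old B1, 6 of 9 were called higher than in old FO, and 0 of 9 were called in old B1 minus old FO. Their summed intensity was 20820 to 35460 in old ABC, 178 to 437 in old B1, 384 to 1528 in young B1 and 472 to 10020 in old FO. Among the ABC arrays the lowest neutrophil sum, 20820, was on replicate 2, which had the highest Fas, and among the FO arrays the highest sum, 10020, was on replicate 3, which had the lowest Fas. Among the young B1 arrays both put replicate 2 highest and replicate 1 lowest, and among the old B1 arrays replicate 3 was lowest for both.

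Some markers of 4 further cell types were also called higher in old ABC. Of all genes, 7.12% were called higher in old ABC than in old FO, and 7.4% higher than in old B1. The sums of old ABC and old FO overlapped for dendritic cells and plasma cells. Of 7 dendritic cell markers 3 were called higher than in old FO and 4 higher than in old B1, with sums of 3598 to 4405 in old ABC, 841 to 1648 in old B1, 2081 to 2694 in young B1 and 2824 to 3872 in old FO. Of 6 T cell markers 1 was called higher in each of these comparisons, with sums of 2533 to 3121 in old ABC, 416 to 2510.0 in old B1, 1124 to 1632 in young B1 and 986 to 2148 in old FO. Of 5 NK cell markers 2 were called higher in each, with sums of 857 to 2089 in old ABC, 290.1 to 660 in old B1, 462 to 540 in young B1 and 449 to 605 in old FO. Of 5 plasma cell markers 2 were called higher than in old FO and 3 higher than in old B1, with sums of 15610 to 18390 in old ABC, 9224 to 12880 in old B1, 9448 to 10170 in young B1 and 9333 to 16430 in old FO. The lowest value of any probe set on any array was 3.003, so no marker could read 0. Some markers lay under the 25th percentile on every array of a group. These were 3 neutrophil markers in old B1 and 2 in young B1, and 3 mast cell markers in old FO. For NK cells it was 1 marker each in old FO, old B1 and young B1. Macrophage and mast cell markers differed too, with sums given further on beside Bbc3. Against old FO, all 9 macrophage and monocyte markers and 2 of 6 mast cell markers were called higher in old ABC. Against old B1, 2 macrophage markers were called higher and 1 lower, and 4 mast cell markers lower. The part of all these cell types in the difference in Fas between groups was not tested.

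Among the 3 anti-apoptotic genes, Mcl1 was called in 1 comparison, and Bcl2 and Bcl2l1 in none. Mcl1 intensity was 6874, 6068 and 6920 in old ABC, 9213, 9021 and 9457 in old B1, 9607, 8953 and 8788 in young B1, and 7354, 8524 and 8069 in old FO. The ABC arrays were the lowest of all 12, and the FO arrays lay between them and both B1 groups. Mcl1 was 0.716-fold in old ABC relative to old B1 (-0.48 ± 0.10, interval -0.69 to -0.27, adjusted p = 0.00745). A fit of these 2 groups alone, with fewer arrays to estimate the spread, did not call it (adjusted p = 0.068).

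The other Mcl1 differences were smaller. Old ABC minus old FO was -0.27 ± 0.10 (interval -0.48 to -0.06, adjusted p = 0.122), with no overlap between the arrays. Old B1 minus old FO was 0.21 ± 0.10 (interval -0.000139 to 0.42, adjusted p = 0.175), again with no overlap. Old and young B1 differed by 0.02 ± 0.10, and the interval of -0.19 to 0.23 gives the range of differences the arrays leave.

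The 6 Mcl1 probe sets gave the same order of means among the old groups. In a fit of all 34945 probe sets with 1 symbol, all 6 were lower in old ABC than in old B1 with no overlap of arrays, by -0.69 to -0.35, and 5 were called. All 6 were higher in old B1 than in old FO, by 0.13 to 0.50, again with no overlap, and 1 was called (0.50 ± 0.13, adjusted p = 0.0273). Against old FO, old ABC was lower for all 6, by -0.38 to -0.14, with no overlap for only 3 of them and no call. The 6 probe sets measure the same RNA on the same arrays and are not independent.

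The promoter of Mcl1, chr3:95658471-95658720 on the plus strand of GRCm38.p6, is shown for comparison with the other called members, and none of the 6 motifs was found in it.
Mcl1: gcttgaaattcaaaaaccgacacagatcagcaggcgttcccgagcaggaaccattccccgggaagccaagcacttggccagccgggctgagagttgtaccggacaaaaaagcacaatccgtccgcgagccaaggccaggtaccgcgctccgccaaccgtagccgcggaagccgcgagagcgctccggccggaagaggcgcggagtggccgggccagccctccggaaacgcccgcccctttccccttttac

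Bcl2, the founding survival gene of the family, had intensities of 2093, 1705 and 2777 in old ABC and 2216, 2332 and 1990 in old B1. In young B1 it had 2946, 2406 and 2604, and in old FO 1887, 2068 and 1772. The ABC arrays spanned the values of both other old groups, and the young B1 arrays lay above every old B1 array. None of the 4 differences was called: 0.17 ± 0.17 for old ABC minus old FO (interval -0.20 to 0.54), -0.02 ± 0.17 for old ABC minus old B1 (interval -0.39 to 0.35), 0.19 ± 0.17 for old B1 minus old FO (interval -0.18 to 0.56) and -0.28 ± 0.17 for old B1 minus young B1 (interval -0.65 to 0.09), with adjusted p of 0.514 to 0.962. Of its 5 probe sets, none was called in any comparison. In old B1 minus young B1, 4 of them were lower and 1 higher (-0.99 to 0.12). Only the brightest had no overlap of arrays there. On old B1 replicate 3, 2 of the dimmer Bcl2 probe sets read 119 and 100.5, against 494 to 574 on the other 2 old B1 arrays.

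Bcl2l1, which encodes BCL-XL, had 133, 102 and 124 in old ABC, 99.8, 109 and 70.8 in old B1, 83.8, 85.6 and 94.4 in young B1, and 95.2, 144 and 84.8 in old FO. The groups overlapped in all 4 comparisons. Its differences were 0.18 ± 0.22 for old ABC minus old FO, 0.37 ± 0.22 for old ABC minus old B1 (interval -0.10 to 0.85), -0.19 ± 0.22 for old B1 minus old FO and 0.06 ± 0.22 for old B1 minus young B1, none called. Without the 2 arrays that stand apart, old B1 minus old FO turned to 0.22 and old ABC minus old FO was 0.405, neither called. With arrays weighted by quality, old ABC minus old FO grew to 0.46 and was called (adjusted p = 0.035). All 4 Bcl2l1 probe sets had a higher mean in old ABC than in old B1, and none was called.

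**Figure D2:**
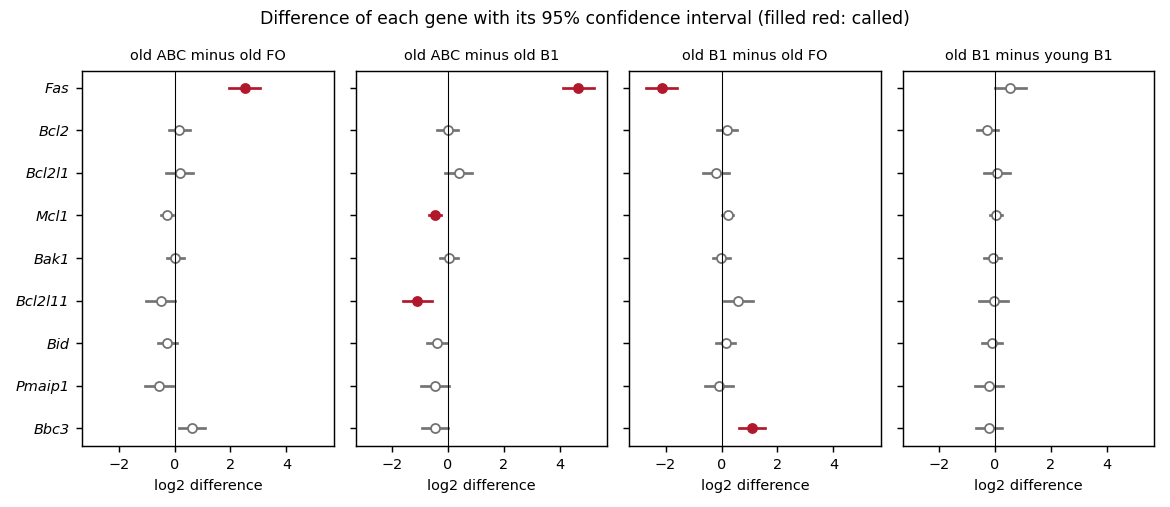
Log2 difference of each of the 9 genes in the 4 comparisons, with its 95% confidence interval from the limma fit; filled red points are called at an adjusted p under 0.05. The called points are Fas in the first 3 comparisons (2.51, 4.66 and -2.14), Mcl1 (-0.48) and Bcl2l11 (-1.09) in old ABC minus old B1, and Bbc3 (1.08) in old B1 minus old FO.

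Bak1, an effector that opens the outer mitochondrial membrane, was near level in all groups. It had 683, 653 and 600 in old ABC, 628, 514 and 780 in old B1, 699, 623 and 694 in young B1, and 631, 659 and 609 in old FO. The groups overlapped in every comparison. The differences lay between -0.09 and 0.03. The widest bounds of their intervals were -0.40 and 0.34, which is the range of differences the arrays leave.

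Bcl2l11, which encodes the BH3-only protein BIM, was lower in old ABC than in old B1. Its intensity was 1521, 821 and 1572 in old ABC, 2588, 2571 and 2874 in old B1, 2645, 3142 and 2573 in young B1, and 1569, 2194 and 1618 in old FO. Every ABC and every FO array lay below every B1 array, while ABC and FO overlapped. Old ABC held 0.468-fold the level of old B1 (-1.09 ± 0.23, interval -1.61 to -0.58, adjusted p = 0.0108). Without ABC replicate 2, the lowest array, the difference was -0.79 and still called (adjusted p = 0.0147), and the fit of the 2 groups alone did not call it (adjusted p = 0.0813).

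Between old ABC and old FO the Bcl2l11 difference of -0.50 ± 0.23 was not called (adjusted p = 0.265), and without ABC replicate 2 it was -0.20. Old B1 minus old FO was 0.59 ± 0.23 (interval 0.07 to 1.11, adjusted p = 0.12), with no overlap of arrays. Without ABC replicate 2, which enters only the estimate of the spread there, the same 0.59 was called (adjusted p = 0.022). Old minus young B1 was -0.05 ± 0.23 (interval -0.57 to 0.46). All 5 Bcl2l11 probe sets were lower in old ABC than in old B1, by -1.15 to -0.37, with no overlap for 4 of them and calls for 3.

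The Bcl2l11 promoter is shown because Bcl2l11 was called in old ABC minus old B1. The gene is a known target of FOXO factors, whose RNA is described further on, and no FOXO factor was called in that comparison. The stretch is the first of 2 windows listed, chr2:128125788-128126037, plus strand, GRCm38.p6, with a FOXO match in capitals that begins 227 bases before the start.
Bcl2l11: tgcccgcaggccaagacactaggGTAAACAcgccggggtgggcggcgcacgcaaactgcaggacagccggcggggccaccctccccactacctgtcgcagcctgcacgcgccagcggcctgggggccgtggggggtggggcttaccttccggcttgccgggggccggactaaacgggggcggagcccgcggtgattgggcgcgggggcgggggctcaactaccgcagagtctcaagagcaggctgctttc
The FOXO motif was found in 3.17% of the 32851 windows.

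Bbc3, which encodes PUMA, was higher in old B1 than in old FO. It had 73.3, 68.7 and 71.3 in old ABC, 136, 102 and 67.6 in old B1, 108, 103 and 130 in young B1, and 46.4, 48.6 and 43.9 in old FO. The FO arrays were the lowest of all 12, and old B1 replicate 3 lay just below the ABC arrays. The difference of old B1 minus old FO was 1.08 ± 0.21 (2.12-fold, interval 0.62 to 1.54, adjusted p = 0.00485), and it was not called in a fit of the 2 groups alone (adjusted p = 0.0635). Old minus young B1 was -0.21 ± 0.21 (interval -0.67 to 0.25) and was not called, and without the 2 arrays that stand apart it turned to 0.06.

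Old ABC also lay above old FO on every array for Bbc3, by 0.62 ± 0.21 (1.54-fold, interval 0.16 to 1.08), which missed the threshold (adjusted p = 0.101). Old B1 replicates 1 and 3, which enter that comparison through the spread alone, decided the call: without replicate 1 it had an adjusted p of 0.0345, without replicate 3 of 0.00714, and without the 2 arrays that stand apart it was 0.66 with an adjusted p of 0.0119. Old ABC minus old B1 was -0.46 ± 0.21 and not called (adjusted p = 0.196), and without old B1 replicate 3 it was -0.73 and called (adjusted p = 0.00567). The FO values of 43.9 to 48.6 lie close to the median intensity of those arrays, 44.01 to 45.4, so how much of them is signal above background is not known.

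Macrophage transcripts had the same order of FO below the other groups. All 9 measured macrophage and monocyte markers (among them Adgre1, Csf1r and Lyz2) were called higher in old ABC than in old FO, and 8 of 9 were called higher in old B1 than in old FO. Their summed intensity was 12310 to 14340 in old ABC, 9472 to 19120 in old B1, 10920 to 16380 in young B1 and 920.3 to 2156 in old FO. Old B1 replicate 3 had the lowest of the old B1 sums, 9472, and the lowest old B1 value of Bbc3. Among the ABC arrays replicate 1 was highest and replicate 2 lowest for both. Old FO replicate 3, however, had the highest FO sum, 2156, and the lowest FO value of Bbc3. Among the young B1 arrays replicate 3 was highest for both, while replicate 1 had the lowest sum and replicate 2 the lowest Bbc3. Of 6 mast cell markers 5 were called higher in old B1 than in old FO and 4 lower in old ABC than in old B1, with sums of 185 to 719 in old ABC, 1921 to 4519 in old B1, 2058 to 9669 in young B1 and 90.8 to 107 in old FO. The part of these markers' cell types in the differences of Fas, Bbc3, Bcl2l11 and Mcl1 was not tested.

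The first of 3 Bbc3 promoter windows, chr7:16309333-16309582, plus strand, GRCm38.p6, is shown because Bbc3 was called in old B1 minus old FO.
Bbc3: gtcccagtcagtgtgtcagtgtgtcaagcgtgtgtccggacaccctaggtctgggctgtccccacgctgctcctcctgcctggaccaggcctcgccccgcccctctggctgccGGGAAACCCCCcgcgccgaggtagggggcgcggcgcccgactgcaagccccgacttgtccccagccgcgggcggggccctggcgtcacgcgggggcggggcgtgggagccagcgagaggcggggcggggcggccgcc
The capitals are 2 overlapping matches to the kappaB consensus, which begin 137 and 136 bases before the start, and 7.25% of all windows hold a match. The GC content of the 4 windows shown was 56.4% for Fas, 64.4% for Mcl1, 72.0% for Bcl2l11 and 76.4% for Bbc3, against a median of 52.4% over all windows.

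Bid, which caspase-8 cuts to carry the death receptor signal to the mitochondrion, and Pmaip1, which encodes NOXA, a partner of MCL1, were not called in any comparison. Bid had 2108, 1320 and 1950 in old ABC, 2417, 2211 and 2330 in old B1, 2500, 2437 and 2577 in young B1, and 1951, 2112 and 2240 in old FO. Every ABC array lay below every old B1 array, by -0.40 ± 0.16 (interval -0.75 to -0.05, adjusted p = 0.134). Old ABC minus old FO was -0.26 ± 0.16 (interval -0.60 to 0.09), with overlap. Without ABC replicate 2 these differences were -0.19 and -0.05.

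Pmaip1 had 884, 625 and 821 in old ABC, 1028, 1050 and 1093 in old B1, 1722, 970 and 1138 in young B1, and 894, 1327 and 1234 in old FO. The 3 ABC arrays were the lowest of the 12. Old ABC minus old FO was -0.56 ± 0.22 (interval -1.06 to -0.07, adjusted p = 0.174) and old ABC minus old B1 was -0.46 ± 0.22 (interval -0.96 to 0.04, adjusted p = 0.231). ABC replicate 2 was the lowest ABC array for Bcl2, Bcl2l1, Mcl1, Bcl2l11, Bid, Pmaip1 and Bbc3, the middle one for Bak1 and the highest for Fas.

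**Figure D3:**
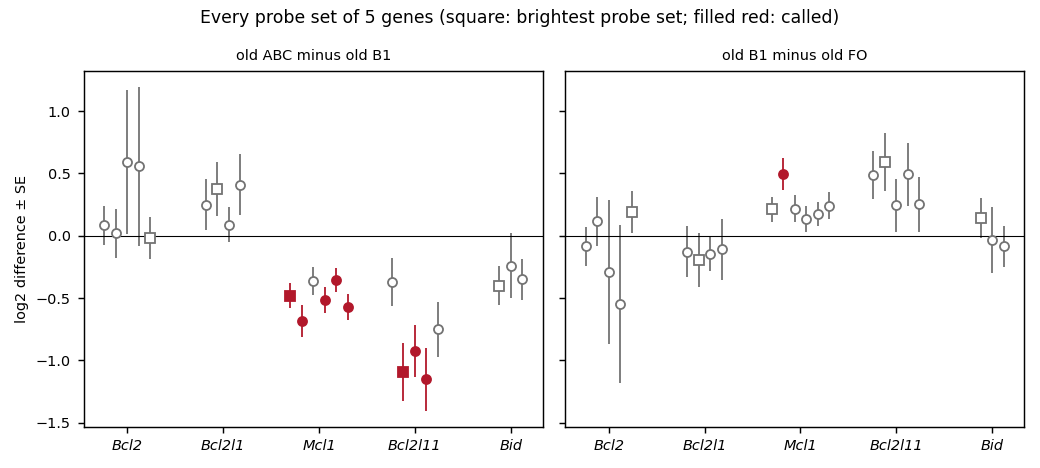
Every probe set of Bcl2, Bcl2l1, Mcl1, Bcl2l11 and Bid in old ABC minus old B1 (left) and old B1 minus old FO (right), as a log2 difference with its standard error; squares are the brightest probe set of a gene and filled red marks are called in the fit of all probe sets. In the left panel all 6 Mcl1 probe sets (-0.69 to -0.35) and all 5 Bcl2l11 probe sets (-1.15 to -0.37) lie below 0.

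Counted together, 1 of 9 members was called in old ABC minus old FO, where 9.96% of all genes were called. That 1 was higher, against 7.12% of all genes called higher, and none was lower, against 2.84%. In old ABC minus old B1 it was 3 of 9, against 12.8% of all genes: 1 was higher, against 7.4%, and 2 were lower, against 5.43%. In old B1 minus old FO it was 2 of 9, against 16.4%, with 1 higher, against 8.4%, and 1 lower, against 8.02%. In old B1 minus young B1 limma called 0 of 9, against 0.291% of all genes, and it was also 0 of 9 at an unadjusted p under 0.05 and with array weights.

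Members whose arrays did not overlap between the groups were 4 of 9 in old ABC minus old FO (2 higher, 2 lower), against 28.8% of all genes (15.2% higher, 13.6% lower). They were 5 of 9 in old ABC minus old B1 (1 higher, 4 lower), also against 28.8% (17% higher, 11.8% lower). In old B1 minus old FO they were 4 of 9 (3 higher, 1 lower), against 28.9% (12.3% higher, 16.6% lower), and in old B1 minus young B1 3 of 9 (1 higher, 2 lower), against 13.9% (6.14% higher, 7.75% lower). Of the 28 probe sets 1, 9, 3 and 0 were called in these 4 comparisons, against 7.69%, 10.6%, 14.2% and 0.223% of all probe sets. The median log2 difference of the members was 0.03, -0.40, 0.14 and -0.09, and that of all genes -0.03, 0.02, -0.04 and -0.01. The comparisons share arrays (old B1 enters 3 of them), and so their counts are not independent.

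Around the members, 78 other genes of apoptosis were measured in 5 lists, chosen from general knowledge with earlier results of these arrays known. Of the 78, 15 were called in old ABC minus old FO (10 higher, 5 lower; 19.2%), against 9.96% of all genes (7.12% higher, 2.84% lower). It was 15 in old ABC minus old B1 (11 higher, 4 lower; 19.2%), against 12.8% (7.4% higher, 5.43% lower), and 22 in old B1 minus old FO (9 higher, 13 lower; 28.2%), against 16.4% (8.4% higher, 8.02% lower). Between old and young B1 it was 1 (1.28%), against 0.291%. These shares of all genes also stand behind the counts by list that follow, and nothing particular to a list is read from them. The count for old ABC minus old FO was 23 without the 2 arrays that stand apart, 24 without old B1 replicate 3 and 10 without ABC replicate 2 or without FO replicate 3. That for old ABC minus old B1 was 9 without ABC replicate 2. The genes named below come from 51 called results, of which 23 were not called in a fit of the 2 groups alone. With the replicate number as a block, 8 of the 51 were not called.

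Among 14 measured genes of the other BCL2 family list, 2 rose and none fell in old ABC against each of the other old groups. Bcl2l14 (BCL-G) had 97.6, 105 and 100.2 in old ABC, 31.6, 46.2 and 38.8 in old B1, and 48.7, 50.1 and 41.7 in old FO. It rose by 1.11 ± 0.17 against old FO (adjusted p = 0.00152) and by 1.39 ± 0.17 against old B1 (adjusted p = 0.000345). Bcl2l15, another member named by similarity, had 206, 101 and 274 in old ABC, 36.6, 23.6 and 15.1 in old B1, and 48.3, 48.4 and 38.9 in old FO. Its rise was 1.99 ± 0.37 against old FO (adjusted p = 0.0056) and 2.92 ± 0.37 against old B1 (adjusted p = 0.000486).

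In old B1 against old FO the same list gave 1 rise and 1 fall. Bnip3, a BH3-like mitochondrial protein of hypoxia and mitophagy, had 317, 321 and 123 in old B1, against 1084, 665 and 832 in old FO (-1.86 ± 0.36, adjusted p = 0.00472). Bcl2l2, which encodes the survival protein BCL-W, had 510, 637 and 968 in old B1, against 325, 406 and 316 in old FO (0.97 ± 0.22, adjusted p = 0.0119). Without FO replicate 3 the Bcl2l2 call was lost (adjusted p = 0.0511).

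Of 19 measured genes of death receptor signalling, 4 rose and none fell in old ABC against old FO, and 5 rose and 1 fell against old B1. Traf1, an adaptor of TNF receptors, had 3285, 3137 and 3501 in old ABC, 1470, 1373 and 847 in old B1, and 1165, 1484 and 1212 in old FO, a rise of 1.37 ± 0.19 against old FO (adjusted p = 0.00102) and of 1.47 ± 0.19 against old B1 (adjusted p = 0.000614). Tnfaip3, which encodes the NF-kappaB inhibitor A20, rose by 1.34 ± 0.18 in old ABC against old B1 (adjusted p = 0.000658). Against old FO it rose by 0.75 ± 0.18 (adjusted p = 0.0219), a call lost on leaving out any of 4 single arrays (adjusted p up to 0.0821).

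The TNF receptors Tnfrsf1a and Tnfrsf1b rose in both old ABC and old B1 against old FO. Tnfrsf1b had 946, 1178 and 1186 in old ABC, 1060, 994 and 931 in old B1, and 499, 532 and 500 in old FO. Its rise was 1.10 ± 0.11 in old ABC (adjusted p = 0.000107) and 0.96 ± 0.11 in old B1 (adjusted p = 0.000171). Tnfrsf1a rose by 2.70 ± 0.42 in old B1 (adjusted p = 0.00136) and by 1.73 ± 0.42 in old ABC (adjusted p = 0.0251), the second call being lost on leaving out any of 5 single arrays (adjusted p up to 0.0969). Macrophage markers rose in the same 2 comparisons, with the sums given above, and their part was not tested.

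Several signal transducers fell in old B1 against old FO, where the list had 3 rises and 5 falls. Traf2, an adaptor that recruits inhibitors of apoptosis to TNF receptors, had 288, 271 and 219 in old B1, against 533, 399 and 476 in old FO (-0.86 ± 0.14, adjusted p = 0.00149). Daxx, which was found as a Fas-binding protein, fell by 0.50 ± 0.11 (adjusted p = 0.00966), and Cflar, which encodes the caspase-8 inhibitor FLIP, by 0.54 ± 0.12 (adjusted p = 0.0117). Tnfsf10, the ligand TRAIL, rose by 1.29 ± 0.29 (adjusted p = 0.0124).

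Tnfsf10 was also the 1 apoptosis gene called between the ages of B1 cells. It had 955, 669 and 335 in old B1, against 167, 174 and 186 in young B1 (1.77 ± 0.29, adjusted p = 0.0419). All old arrays lay above all young ones. The call was lost on leaving out any of 11 of the 12 arrays (adjusted p up to 0.206), all except old B1 replicate 3.

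Caspases and the apoptosome showed no rise and 2 falls of 19 in old ABC against old FO, 2 rises and 1 fall against old B1, and no rise and 4 falls in old B1 against old FO. Casp2, an initiator caspase, had 1185, 1099 and 1175 in old ABC, against 1628, 1672 and 1639 in old FO (-0.51 ± 0.11, adjusted p = 0.0107). Endog, a mitochondrial nuclease, had 954, 1111 and 1055 in old ABC and 741, 757 and 637 in old B1 (0.55 ± 0.13, adjusted p = 0.015), a call lost without ABC replicate 2 (adjusted p = 0.0627). The arrays of these groups did not overlap for either gene.

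Of 16 measured genes of the p53 list, 2 rose and 1 fell in old ABC against each other old group, and 2 rose and 2 fell in old B1 against old FO. Sesn2, a stress-induced sestrin, had 341, 387 and 297 in old ABC, 138, 148 and 104 in old B1, and 101, 91.5 and 113 in old FO, a rise of 1.75 ± 0.15 against old FO (adjusted p = 4.75e-05) and of 1.40 ± 0.15 against old B1 (adjusted p = 0.000189). Its relative Sesn1 went the other way against old FO: it fell by 1.25 ± 0.17 in old ABC (adjusted p = 0.000669) and by 1.27 ± 0.17 in old B1 (adjusted p = 0.000424). Gadd45a, a stress-response gene, had 1021, 1148 and 747 in old ABC, 284, 316 and 135 in old B1, and 1500.0, 822 and 1479 in old FO. It rose by 2.06 ± 0.35 in old ABC against old B1 (adjusted p = 0.00275) and fell by 2.41 ± 0.35 in old B1 against old FO (adjusted p = 0.000792). Cdkn1a, the cell cycle inhibitor p21, had 346, 173 and 264 in old B1, against 105, 61.7 and 74.7 in old FO (1.67 ± 0.27, adjusted p = 0.00165).

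The last list holds FOXO factors, ubiquitin ligases and other regulators of MCL1 turnover, the Pim kinases, and the stress transcription factors Atf4 and Ddit3. Of its 11 genes, 2 rose and 2 fell in old ABC against old FO, none rose and 1 fell against old B1, and 3 rose and 1 fell in old B1 against old FO. Fbxw7, a ubiquitin ligase subunit that targets MCL1 among others, had 3250.0, 3011 and 3298 in old ABC, 3578, 3736 and 3141 in old B1, and 2064, 2141 and 1783 in old FO. It rose against old FO in old ABC by 0.68 ± 0.11 (adjusted p = 0.00216) and in old B1 by 0.80 ± 0.11 (adjusted p = 0.000495). The survival kinases Pim1 and Pim2 rose in old B1 against old FO by 1.19 ± 0.23 and 0.77 ± 0.17 (adjusted p = 0.00508 and 0.00928), and Pim2 was lower in old ABC than in old B1 by -0.86 ± 0.17 (adjusted p = 0.00659). Foxo1, a FOXO transcription factor, had 3298, 3138 and 2493 in old B1, against 4631, 4204 and 5413 in old FO (-0.68 ± 0.13, adjusted p = 0.00536). Foxo3, a FOXO factor known as an activator of Bcl2l11, fell by 0.47 ± 0.12 in old ABC against old FO (adjusted p = 0.0315), a call lost on leaving out any of 7 single arrays (adjusted p up to 0.115), and lost at -0.40 (adjusted p = 0.0618) without old B1 replicate 3 and old FO replicate 2.

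**Figure D4:**
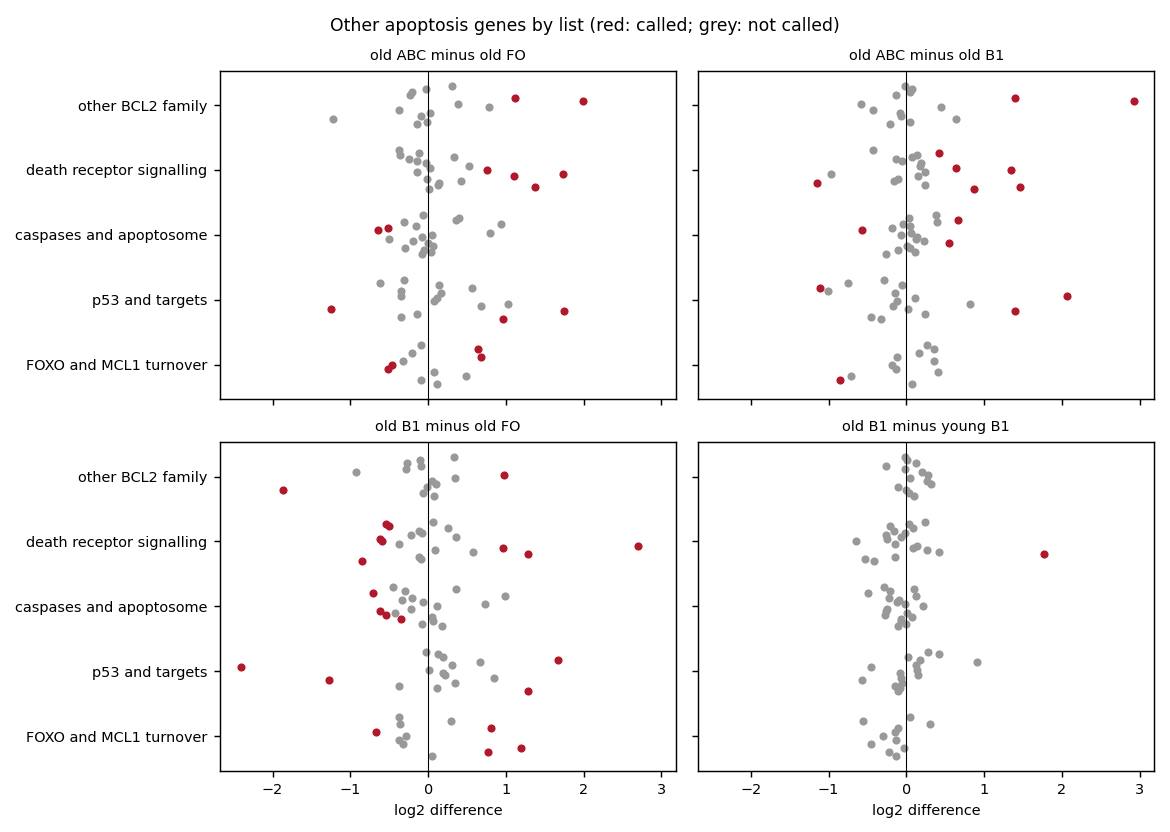
Log2 differences of the other apoptosis genes, by list (rows of points) and comparison (panels); red points are called at an adjusted p under 0.05 and grey points are not, and the spread of points within a row has no meaning. Called genes lie on either side of 0 in the 3 comparisons of cell types, and a lone red point at 1.77, Tnfsf10, stands in old B1 minus young B1.

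The genes whose log2 intensity followed Fas most closely were taken by Pearson's r over the 12 arrays, among 10078 named genes whose mean reached the median probe set. They were Epb41l5 (r = 0.986), Afap1 (0.981), Tbx21 (0.98), Hsd11b1 (0.98) and Padi2 (0.977). Tbx21, the gene of the transcription factor T-bet, averaged 3332 in old ABC, 77.8 in old B1, 33.9 in young B1 and 364 in old FO. Hsd11b1, an enzyme that reactivates glucocorticoids, averaged 2957 in old ABC, 162 in old B1, 146 in young B1 and 1041 in old FO. All 5 were highest in old ABC and second in old FO, as Fas was, an order that goes with how they were chosen. Over the 9 arrays without ABC, which also entered the choice, the r values were 0.924 to 0.975.

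The genes most like Bcl2 were Zmynd8 (r = 0.929), Slc35e2 (0.896), Mbd1 (0.894), Snn (0.891) and Mlec (0.874), and without ABC their r was 0.844 to 0.936 over 9 arrays. Their range was narrow: Zmynd8, a chromatin reader, averaged 1705 in old ABC, 1742 in old B1, 1998 in young B1 and 1521 in old FO. The arrays fall into 4 groups and share their normalization, and these r values describe likeness over the same 12 arrays with no test.

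**Figure D5:**
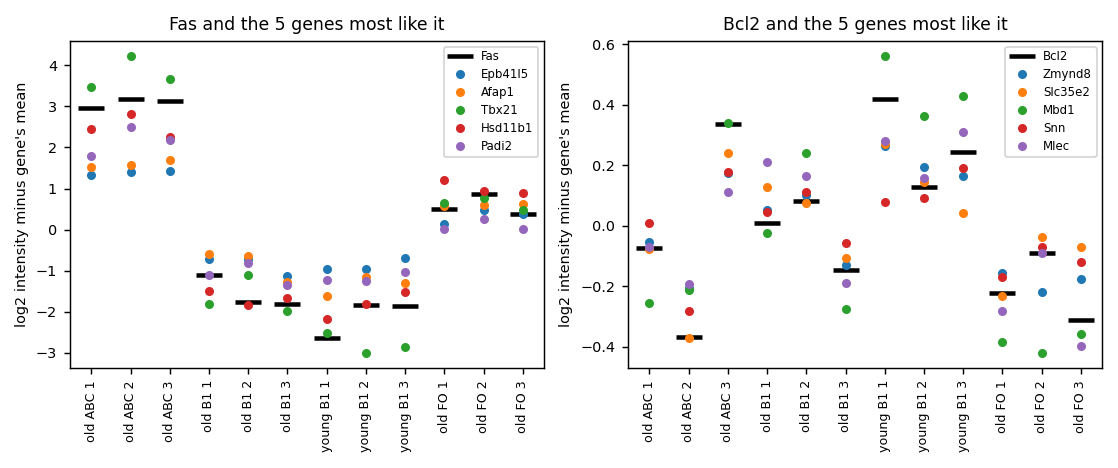
Log2 intensity minus the gene's mean over 12 arrays, for Fas and the 5 genes most like it (left) and for Bcl2 and the 5 genes most like it (right), by array on the horizontal axis. Black bars are Fas or Bcl2 and coloured points the other genes. The Fas group spans over 5 log2 units with all ABC arrays on top, and the Bcl2 group less than 1, with all 6 genes above their mean on the young B1 arrays and on ABC replicate 3 and below it on the FO arrays.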

How the data were processed

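Intensity values on a linear scale were deposited by the authors for 12 Affymetrix arrays, 3 in each of 4 groups named by the sample titles. RMA and affy were used per the submitters' processing notes; versions, order and genome build were not given in the sources used here. Each intensity was converted to log2. Of 45037 probe sets, 34945 carried 1 symbol, 932 several and 9160 none in the platform annotation; only the first were used, with no filter on dim ones. A gene was its probe set of highest mean over 12 arrays (18193 genes). limma 3.58.1 (R 4.3.3; lmFit, eBayes) fitted 4 group means to all arrays (8 residual degrees of freedom, prior 2.37), with Benjamini-Hochberg adjustment over all genes, and a second fit took all 34945 probe sets. The number of arrays limits the precision. The procedure was run on simulated data in which every array had the same spread. The weights estimated for the real arrays ran from 0.102 to 2.81, and nothing about these arrays is drawn from that run.

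The members and gene lists were chosen with earlier results of these data known. Named genes are all members, the called genes with the lowest p of each apoptosis list (up to 6 per comparison, of which the text gives a choice made after their values were seen), and the 5 genes most like Fas and Bcl2, passing over predicted genes, clone names and immunoglobulin segments. Alternatives were eBayes with trend or robust, only the 2 groups compared, the replicate number taken as a block, array weights, cyclic loess, median centring, a pseudocount of 16, dim genes left out, 2 other probe set rules, no old B1 replicate 3 and old FO replicate 2, and each array left out. Same-numbered arrays of different groups were checked for pairing: 3 of 18 correlations of their deviations exceeded 0.1 (range -0.391 to 0.228). With 3 arrays a group this check cannot tell whether the numbers pair the arrays, and the main fit does not pair them. Promoter windows are RefSeq's, GRCm38.p6; figures used matplotlib 3.10.9 in Python 3.11.15.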

Additional observations from a re-analysis of the deposited data

How the results depend on the processing

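No result of a member changed direction once called: of 36 member results (9 genes in 4 comparisons), 27 kept their side of the threshold under all 24 settings and 0 reversed. Members called in old ABC minus old FO went to 4 with array weights (Fas, Bbc3, Bcl2l1 and Mcl1), and to 2 with trend (Fas and Mcl1), the 2 groups alone, cyclic loess or without the 2 arrays that stand apart (Fas and Bbc3); leaving out 1 array gave 1 to 2. The 2 groups alone left 1 member (Fas) in old ABC minus old B1, where leaving out 1 array gave 3 to 4, and 1 (Fas) in old B1 minus old FO, where it gave 2 to 3. In old B1 minus young B1 all settings gave 0. Apoptosis genes called in old ABC minus old FO were 34 with array weights and 23 without the 2 arrays (10 to 24 on leaving out 1). In old ABC minus old B1 they were 7 with the 2 groups alone (9 to 16). In old B1 minus old FO they were 9 with the 2 groups alone and 35 with array weights (17 to 27). In old B1 minus young B1 the count of 1 became 0 with the 2 groups alone, the replicate block, the pseudocount of 16 and the mean of probe sets (0 to 1). Of 51 named results of apoptosis genes, 33 kept their call on leaving out any array and 0 reversed. Of the same 51, 23 lost their call with the 2 groups alone and 8 with the replicate block. The 2 groups alone take the spread from fewer arrays, and only from their own. The cause of the shifts was not tested. The replicate block kept the member counts at 1, 3, 2 and 0. Median centring moved the median of all genes in old ABC minus old FO to -0.114, against -0.0335. No measure of signal over background was used, which limits what can be said of dim probe sets such as those of Bbc3 and Bcl2l1.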
